A study of Homo sapiens with 8 samples.

Results

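The 9 genes described here are stem cell genes that carried at least 1 listed site of candidate RNA acetylation in H1, an established line of human embryonic stem cells. They are POU5F1, SOX2, LIN28A, DPPA4, DNMT3B, L1TD1, PODXL, SFRP2 and CD9. The genes were chosen by the presence of a site in the authors' deposited lists, so that they have sites is not a finding. They are 9 of the 1506 genes listed in either genotype. Together they held 8 of the 950 sites (0.842%) in the list of cells with a NAT10 knockdown (NAT10 KD) and 9 of the 1005 sites (0.896%) in the list of wild-type (WT) cells. At distinct positions these were 15 of 1851 sites.

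The sites come from chemical ac4C sequencing, in which sodium cyanoborohydride reduces N4-acetylcytidine (ac4C) so that reverse transcriptase reads it partly as T. Per the labels, the 8 libraries form 4 groups of 2 replicates. They are treated and input RNA of NAT10 KD cells, which received a lentivirus with GFP and an shRNA against NAT10, and treated and input RNA of WT cells. The NAT10 KD cells were, after 48 h of transduction, enriched for GFP and grown under puromycin (0.5 µg/ml) in TeSR-E8. The WT cells are described in PGM1 medium, with no control shRNA named, so genotype, virus, selection and medium cannot be told apart. One list per genotype was used here, with no value per replicate, and the depth behind each site is unknown. No site therefore carries an error, and no test between genotypes was made. How much NAT10 RNA remained in the knockdown was not analysed here.

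NAT10 is the acetyltransferase that writes ac4C in RNA. Embryonic stem cells keep their undifferentiated state through a network led by the transcription factors OCT4 (the product of POU5F1), SOX2 and NANOG, and supported by RNA-binding proteins, chromatin factors and surface proteins. POU5F1 and SOX2 bind DNA together at many enhancers, LIN28A blocks the maturation of let-7 microRNAs, and DNMT3B methylates DNA de novo.

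Each listed site is a single base of genome build hg38 with a strand, a gene and a score, and sites are ranked by that score within a list. The authors' score has no stated formula, and its lowest value was 1.302 in either list, so a site below that value is missing from these lists without being shown to be unacetylated. That lowest value lies just above 1.30103, which is -log10 of 0.05, so a score may be a log p-value, though no source used here says so. The base at a listed position could be read where a RefSeq promoter window (GRCh38.p14, 250 bases before to 50 bases after an annotated start) covered it. It was C on the strand of the site at 49 of 49 such sites in the NAT10 KD list and 55 of 55 in the WT list, 94 distinct positions in all. Because the method looks for C read as T, a C at a listed position is no evidence that it is acetylated. None of the sites in the 9 genes lay in a window (0 sites), so their own bases were not read here. The 2 sequences below show what a listed position looks like. They are the 2 highest-scoring sites in the WT list that were also in the NAT10 KD list and lay in a window of their own gene, and the capital letter is the listed base.
PRDX5 (plus strand, chr11:64318299-64318319): ggcagcaagaCggtacagtga
MLF2 (minus strand, chr12:6753050-6753070): gaggaggcggCgtggaaggcc
The triplet CCG, the context in which ac4C is best known, was at 6 of the 49 sites in NAT10 KD and 5 of the 55 in WT.

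Of the core factors, POU5F1 had a site in both lists and SOX2 in the WT list alone. POU5F1 (ENSG00000204531, minus strand of chromosome 6, RefSeq span 31164337 to 31170682) scored 2.07 at position 31164637 in NAT10 KD and 2.09 at position 31164363 in WT. These scores ranked 275 of 950 in NAT10 KD and 310 of 1005 in WT. The positions are 274 bp apart, and both lie at the 3′ end of the gene: the NAT10 KD site 300 bases and the WT site 26 bases before the end of the span. Near-equal scores thus stood at different bases of the same end of the OCT4 gene.

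SOX2, a partner of OCT4 (ENSG00000181449, plus strand of chromosome 3), had 1 WT site at position 181713526, with a score of 2.01 and rank 337. It is base 1602 from the annotated start and 910 bases before the end of the span, which runs from 181711925 to 181714436. The span of the noncoding RNA SOX2-OT covers this position on the same strand, so reads of either transcript could give the site. NANOG had 0 sites in both lists.

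The RNA-binding genes had sites of low score. LIN28A (ENSG00000131914, plus strand of chromosome 1) had 1 site, in NAT10 KD at position 26428937, with a score of 1.42 and rank 745. It lay 791 bases before the end of a span of 18912 bases. L1TD1, an RNA-binding protein derived from a LINE-1 element and abundant in pluripotent cells (ENSG00000240563, plus strand of chromosome 1), scored 1.42 at position 62211888 in NAT10 KD and 1.41 at position 62211753 in WT. The L1TD1 positions are 135 bp apart, with the NAT10 KD site 440 bases and the WT site 575 bases before the end of the span. In both lists its score was exceeded by most sites, 78.5% of them in NAT10 KD and 82.5% in WT.

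The chromatin genes held the only members with several sites in a list. DNMT3B (ENSG00000088305, plus strand of chromosome 20, span 32762385 to 32809356) had 2 sites in each list. The site at position 32780364 was in both, with a score of 1.37 in NAT10 KD and 2.99 in WT, a ratio of 0.460. The further NAT10 KD site, at 32806313, scored 1.35, and the further WT site, at 32784778, scored 3.53. Both DNMT3B sites in NAT10 KD thus ranked far down that list, at 823 and 859 of 950, while both in WT were among the higher ones, at 148 and 106 of 1005. The shared DNMT3B site is base 513 from an annotated start inside the gene (position 32779852), and the further sites lie 25949 bp (NAT10 KD) and 4414 bp (WT) downstream of it.

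DPPA4, a DNA-binding protein found in pluripotent cells and the early embryo (ENSG00000121570, minus strand of chromosome 3), had 0 sites in NAT10 KD and 2 in WT. The first, at position 109326553, scored 3.83, the highest of the 9 WT sites, at rank 88. It lay 409 bases before the end of the span (109326144 to 109339636). The second, at 109330731 and 4178 bp from the first, scored 2.19. Genes with 2 or more sites were thus 1 of 7 in NAT10 KD, where 11.1% of all listed genes had as many, and 2 of 7 in WT, where 11.7% did.

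The surface and secreted proteins gave the highest score as well as several low ones. CD9, a tetraspanin of the cell surface (ENSG00000010278, plus strand of chromosome 12, span 6199946 to 6238266), had 1 site, in NAT10 KD at position 6200504. Its score of 6.20 ranked 33 of 950, so 3.37% of that list scored higher. The CD9 site was also the only one of the 15 positions near the 5′ end of its gene span, at 1.46%. By annotated start, the shared DNMT3B site is also close to one, as base 513 from a start inside the gene. RefSeq's promoter table gives CD9 4 starts. The site is base 105 from the start at position 6200400 and base 559 from the start at 6199946, and it lies upstream of the starts at 6200842 and 6226139. Because the site follows the start at 6200400 so closely, the 250 bases before that start (plus strand, chr12:6200150-6200399) are shown, with GGGCGG, the core of the GC box, in capitals.
CD9: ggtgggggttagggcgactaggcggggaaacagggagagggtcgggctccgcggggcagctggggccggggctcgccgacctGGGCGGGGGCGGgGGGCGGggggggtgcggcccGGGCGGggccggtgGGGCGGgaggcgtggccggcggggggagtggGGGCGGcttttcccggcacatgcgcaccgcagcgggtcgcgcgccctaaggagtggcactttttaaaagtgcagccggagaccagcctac
This stretch held 6 matches to GGGCGG or its reverse complement CCGCCC, searched on both strands with overlaps counted. Of the 35116 promoter windows of RefSeq, 42.6% held at least 1 match in the same 250 bases and 2.22% held 6 or more. The same search found 0 matches before the DNMT3B start at position 32779852, where the shared DNMT3B site is base 513. The CD9 start at 6199946 also has the CD9 site in its first 1000 bases, and no count is given for it here. The motif was chosen after the sequence was seen, and a match is not a binding site.

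PODXL, a sialomucin that carries stem cell surface epitopes (ENSG00000128567, minus strand of chromosome 7), scored 1.525 at position 131503521 in NAT10 KD and 1.534 at position 131505995 in WT. The sites are 2474 bp apart in a span of 56358 bases, with the NAT10 KD site 3250 bases and the WT site 5724 bases before its end. SFRP2, a secreted modulator of WNT signalling (ENSG00000145423, minus strand of chromosome 4), had 1 site at the same base in both lists, position 153781427. It scored 1.41 in NAT10 KD and 1.53 in WT, a ratio of 0.927, and lay 836 bases before the end of the span. Both PODXL and SFRP2 scored below the median of all sites in both lists.

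**Figure D1:**
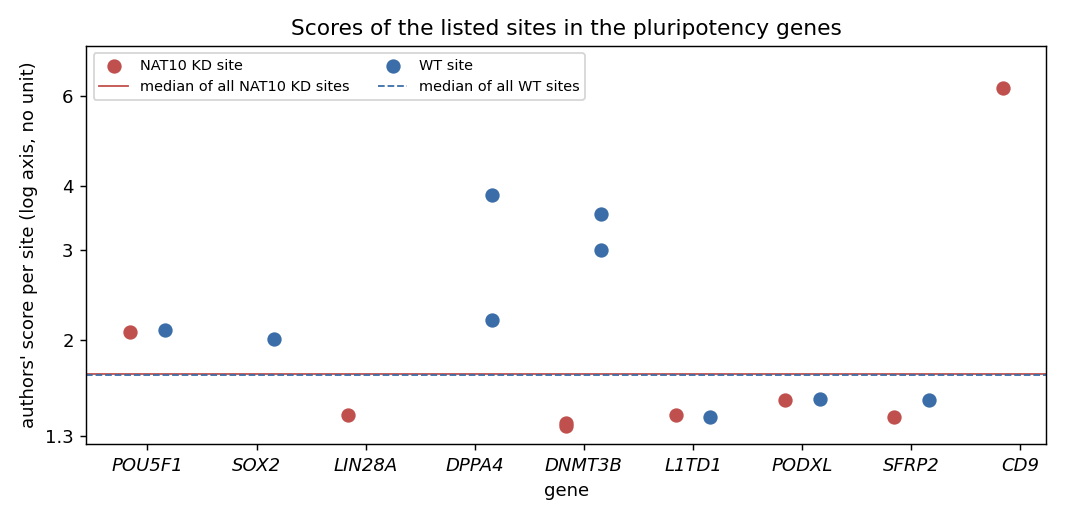
The authors' score (log axis) of each listed site in the 9 genes, with NAT10 KD sites at the left and WT sites at the right of each gene and the median of all sites of each list as a line. The NAT10 KD sites lie below both medians except those in POU5F1 (2.07) and CD9 (6.20), while 6 of the 9 WT sites lie above them.

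Set against their own list, the median score of these few sites was lower in NAT10 KD and higher in WT. In NAT10 KD the sites below the list median were those in LIN28A, DNMT3B, L1TD1, PODXL and SFRP2. POU5F1, PODXL, SFRP2 and L1TD1 scored nearly alike in the 2 lists, with ratios of 0.927 (SFRP2) to 1.007 (L1TD1). Besides that in POU5F1, the WT sites above the list median were 2 in DNMT3B, 2 in DPPA4 and 1 in SOX2, which was just above 2. In NAT10 KD the scores of the member sites ran from 1.35 (DNMT3B) to 6.20 (CD9). Their median was 1.42, where the median of all 950 sites was 1.72. In WT the scores of the member sites ran from 1.41 (L1TD1) to 3.83 (DPPA4). Their median was 2.09, where the median of all 1005 sites was 1.70. A score of at least 2 was reached by 2 of 8 sites in NAT10 KD, in POU5F1 and CD9, against 31.9% of that whole list. In WT it was reached by 6 of 9 sites, in POU5F1, SOX2, DPPA4 and DNMT3B, against 33.7% of the whole list. The highest score of the whole list was 237.1 in NAT10 KD and 309.7 in WT, far above any site of these genes. The lowest member scores were 1.35 for DNMT3B in NAT10 KD and 1.41 for L1TD1 in WT, where the lowest listed value was 1.302 in either list. The DNMT3B site was exceeded by 90.3% of the NAT10 KD list and the L1TD1 site by 82.5% of the WT list. Sites below the lowest listed value were not analysed here. Where scores of the 2 lists are set side by side, the ratio or gap describes the authors' scores and measures no change in acetylation, since depth may enter a score.

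**Figure D2:**
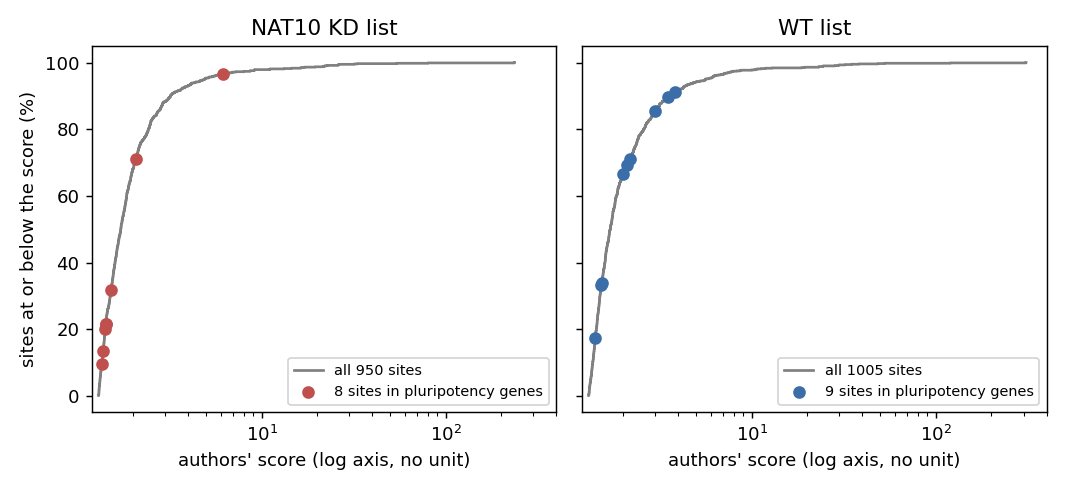
Share of sites (%) at or below each score (log axis) for the NAT10 KD list at the left and the WT list at the right, with the sites of the 9 genes as points. In NAT10 KD 6 of 8 points lie in the lower part of the curve, below the median of 1.72, and in WT 6 of 9 lie above the median of 1.70.

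In both lists stood 5 of the 9 genes: POU5F1, DNMT3B, L1TD1, PODXL and SFRP2. Of all listed genes, 14.7% were in both. The 9 genes are few and were chosen with earlier results of these data known, and expression was not analysed here. Nothing is therefore read from that difference. LIN28A and CD9 were in NAT10 KD only, and SOX2 and DPPA4 in WT only. The same base was listed in both genotypes for 2 sites, those in DNMT3B and SFRP2. They are 2 of 8 sites in NAT10 KD, against 10.9% of the whole list, and 2 of 9 in WT, against 10.3%. Their score ratios of NAT10 KD to WT were 0.460 (DNMT3B) and 0.927 (SFRP2). Over all 104 sites listed at the same base the median ratio was 0.891, and 66 of them scored lower in NAT10 KD. The highest score of the gene was lower in NAT10 KD for 4 of the 5 genes, against 56.3% of the 222 genes found in both lists. For POU5F1, PODXL and SFRP2 that gap was small, at -0.0139, -0.0082 and -0.111 (NAT10 KD minus WT), and for DNMT3B it was -2.15. L1TD1 was higher in NAT10 KD, by 0.0102. Over the 5 genes the median ratio of NAT10 KD to WT was 0.993, and over the 222 genes it was 0.948.

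In the 3 genes that were in both lists at different bases, the sites lay 135 bp (L1TD1), 274 bp (POU5F1) and 2474 bp (PODXL) apart. Over all 125 genes of this kind the median of the smallest distance was 2547 bp, with quartiles of 376 and 9014 bp, and 31 of them (24.8%) had a distance of 300 bp or less. L1TD1 and POU5F1 belong to these 31, and PODXL lay near the median. The limit of 300 bp was added after the data were seen, so nothing is read from this share.

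**Figure D3:**
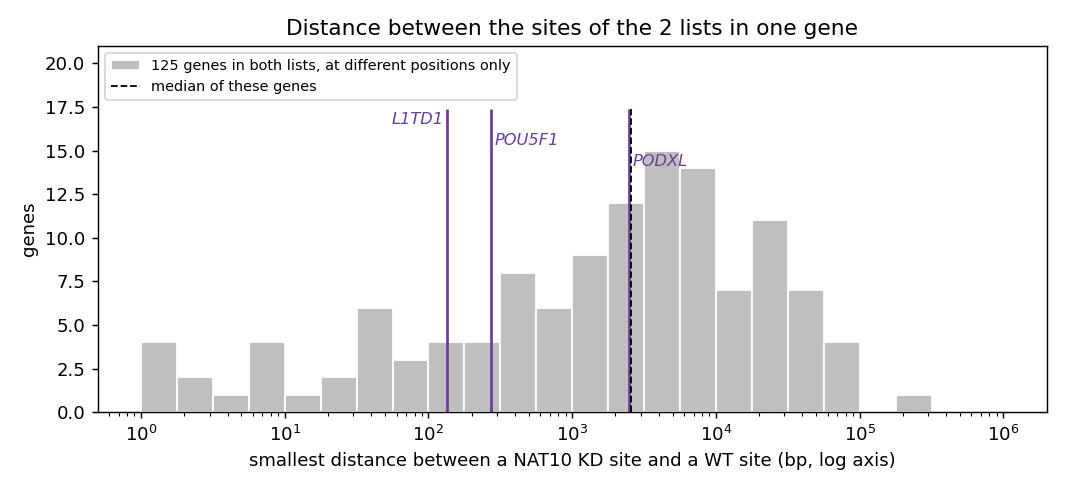
Smallest distance (bp, log axis) between a NAT10 KD site and a WT site of the same gene, for the 125 genes found in both lists at different positions only. Vertical lines mark L1TD1 (135 bp), POU5F1 (274 bp), PODXL (2474 bp) and, dashed, the median of 2547 bp.

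Most sites of the 9 genes lay late in their genes. The position was taken along the RefSeq gene span from the 5′ to the 3′ end, introns included, and was not used to choose the genes. The median site lay at 93.9% of the span in NAT10 KD and at 89.8% in WT, where the medians over all sites with a matched span were 62.7% in NAT10 KD (918 sites) and 56.6% in WT (973 sites). Past 80% of the span lay 6 of 8 sites in NAT10 KD, against 34.1% of all sites with a matched span. In WT it was 5 of 9, against 29.2%. These counts overlap: POU5F1, L1TD1, PODXL and SFRP2 had such a site in both lists, for SFRP2 at the same base. Within 1000 bases of the end lay 4 of 8 sites in NAT10 KD (POU5F1, LIN28A, L1TD1 and SFRP2), against 13.9% of all sites with a matched span. In WT it was 5 of 9 (POU5F1, SOX2, DPPA4, L1TD1 and SFRP2), against 12.3%. The median span of these genes was shorter than that of all listed genes with a span. In NAT10 KD it was 18912 bases, against 27450, and in WT 13493 bases, against 26660. DNMT3B, PODXL and CD9 had longer spans than these, of 46972, 56358 and 38321 bases. The part of gene length in these shares was not tested. The sites that lay earlier were those in CD9 (1.46%), DNMT3B (38.3% and 47.7%), SOX2 (63.8%) and the second of DPPA4 (66.0%). Whether a site is in coding sequence, a UTR or an intron was not analysed here, because the gene table gives no exons.

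**Figure D4:**
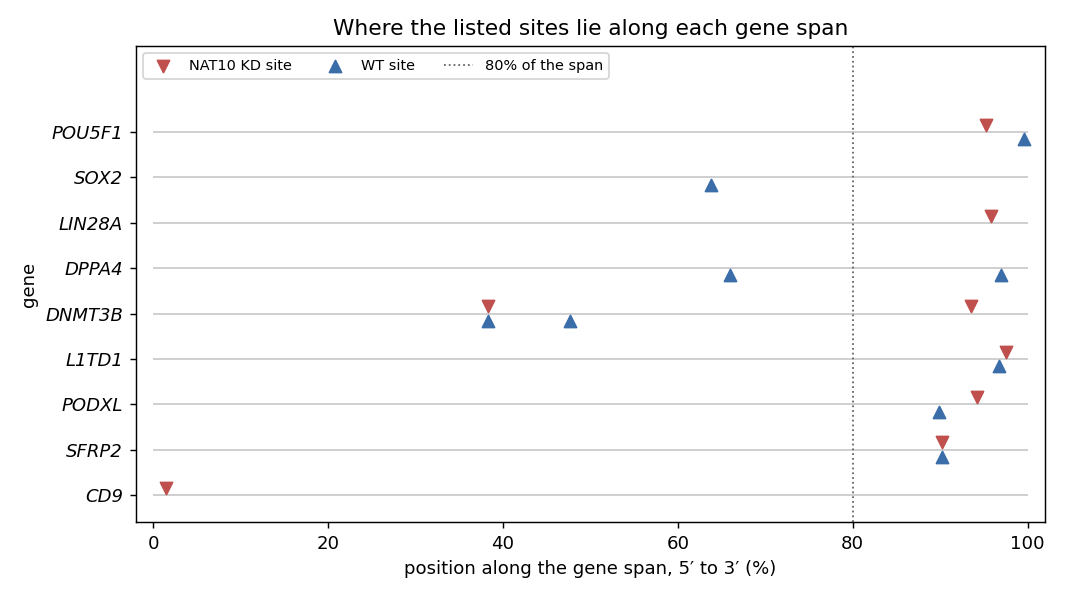
Position of each listed site along its gene span (%, 5′ to 3′), with NAT10 KD sites above and WT sites below each line and a dotted line at 80%. Of the 15 distinct positions 10 lie past 80%, and the CD9 site at 1.46% is the only one near the 5′ end of its span. The shared DNMT3B site, at 38.3% of its span, is base 513 from an annotated start inside the gene.

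Copies and overlaps touch some of these sites. Pseudogenes are named after 4 of the 9 genes in the RefSeq table: 6 after POU5F1, 3 each after LIN28A and DPPA4, and 1 after L1TD1. Reads from a copy may be counted at its parent gene, so the sites in these 4 genes are uncertain in their origin. None of these pseudogenes was itself listed (0 sites). The sites in DNMT3B, SFRP2, PODXL and CD9 have no such copy and no other annotated gene at the site. Copies were sought by name alone and not by sequence, so a copy with another kind of name is not counted for any of the 9 genes. For the 6 genes in the promoter table, 12 of 12 entries lay on the annotated strand of the gene.

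The wider network was counted from a further 66 genes of pluripotency and embryonic stem cells. Of these, 8 had a site in NAT10 KD and 5 in WT, 3 of them in both, and 56 had none. Of the 20056 protein-coding genes in the RefSeq table, 3.94% had a site in NAT10 KD and 4.19% in WT, matched by symbol and whether or not H1 cells express them. Expression was not analysed here, so nothing is read from the counts of these gene lists against those shares. The highest was FOXD3-AS1, a noncoding RNA beside the gene of the stem cell factor FOXD3. It had the same base in both lists (chromosome 1, position 63321421, minus strand), with 26.2 and rank 7 in NAT10 KD and 29.4 and rank 9 in WT. CD24, a surface glycoprotein, scored 1.71 in NAT10 KD and 1.505 in WT at different bases. THY1, a surface protein also found on fibroblasts, scored 2.40 in NAT10 KD and 1.63 in WT, again at different bases.

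In NAT10 KD alone stood 5 of the 66. They were SALL4, a zinc finger factor that acts with OCT4 (1.72), the noncoding RNA ESRG (1.99), IGF2BP3, an RNA-binding protein (1.42), the de novo methyltransferase DNMT3A (1.31) and ITGA6, an integrin (1.304). In WT alone stood TRIM28, a corepressor that binds KRAB zinc finger proteins (3.54), and SALL2 (1.45). Of 23 genes that mark other cell types, 2 had sites in NAT10 KD (THY1 and the tubulin gene TUBB3, at up to 1.48). In WT 2 had sites (THY1 and the keratin gene KRT8, at 3.53), and 20 had none in either genotype. THY1 is also among the 66 genes, so it is counted in both sets. A listed site gives no expression level, so these counts do not check the identity of the cells.

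Among the 215 other named genes in both lists, the one nearest to each member by its pair of highest scores was IMPA2 for POU5F1, AFDN for DNMT3B, KIFC1 for L1TD1, RAB34 for PODXL and SOX13 for SFRP2. AFDN, the match to the gene with the widest gap, scored 1.44 in NAT10 KD and 3.72 in WT. IMPA2 scored 2.11 in NAT10 KD and 2.03 in WT. The distance on the log10 scale was between 0.00308 (KIFC1) and 0.0309 (AFDN). Likeness over only 2 lists is a description of scores.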

How the data were processed

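Capture of mRNA started from 30 µg of total RNA, per the labels' protocols, and all but a small input portion was reduced with sodium cyanoborohydride (20 min at 25 °C). Build hg38 and the tools STAR 2.7.8a, SAMtools 1.12 and fastp 0.21.1 appear in the submitters' processing notes. The site caller, its filters and how it used input and replicates were not given in the sources used here. For each genotype the authors deposited a list of sites with 1 score per site, whose formula the file headers do not give.

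Sites were taken by gene symbol and printed at the 1-based end coordinate. A site counted as shared when chromosome, strand and base were identical (0 bp apart). Gene spans, starts, strands and sequences came from RefSeq tables of GRCh38.p14, the assembly of hg38. Named genes were the 9 members, every listed gene of the 66 network and 23 marker genes, and 1 nearest gene by score for each member in both lists. PRDX5 and MLF2 were added later. Members and lists were chosen with earlier results of these data known. The position match was checked on simulated lists. Python 3.11.15, pandas 2.3.3, NumPy 2.4.6 and matplotlib 3.10.9 were used.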

Additional observations from a re-analysis of the deposited data

How the results depend on the processing

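The lists hold no replicate values, so no library could be left out, and the precision of a score is unknown. No paired analysis was possible because each genotype has 1 list without a value per replicate. With a score of at least 2, the sites in the 9 genes numbered 2 in NAT10 KD and 6 in WT, and with a score at least 1 above the lowest listed they numbered 1 in NAT10 KD and 3 in WT, compared with 8 in NAT10 KD and 9 in WT over all scores. Counted by gene they numbered 7 in each list, and by RefSeq span and strand 8 in NAT10 KD and 9 in WT. The sites in both lists numbered 2 at tolerances of 0, 10 and 100 bp, 4 within 300 bp (added after the data were seen) and 5 when matched by gene. Without the genes that have a pseudogene named after them, the median score was 1.41 in NAT10 KD and 2.01 in WT. With the highest site of each gene it was 1.42 in NAT10 KD and 2.01 in WT. The median distance to the 3′ end was 1939.5 bases in NAT10 KD and 910 in WT, and with the nearest site of each gene (added later) it was 836 in both. By construction, a score minimum, counting by gene and leaving genes out count fewer sites, and a wider tolerance or matching by gene is looser. Position along exons was not run, because the gene table has none.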
